A study of Saccharomyces cerevisiae with 16 samples.

Results

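The genes described here encode the enzymes of de novo purine synthesis in Saccharomyces cerevisiae: ADE17, ADE16, ADE1, ADE2, ADE4, ADE5,7, ADE6, ADE8, ADE12 and ADE13. They are 10 genes among the 6241 features listed in all 4 deposited tables of an RNA sequencing study of the kinase Hrr25. They were taken by name, with ADE17 set against its paralogue ADE16 and against the rest of the pathway. They were chosen by their function and selected on results of these data that were already known, the log2 ratio of the condition B mean to the condition A mean in every table. These ratios, and the authors' calls that rest on them, are therefore given as a description.

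The series had 16 samples in 8 groups of 2, from 3 strains. In every strain the chromosomal HRR25 gene, which encodes a casein kinase of the delta and epsilon type, had been replaced by kanMX4, and HIS3, LEU2 and URA3 were deleted, so that a plasmid supplied the kinase. The hrr25as cells carried an I82G kinase and the hrr25is cells a kinase with I82G and I23C, both on the LEU2 plasmid pRS315. The WT cells carried HRR25 on the URA3 plasmid pRS316. Cells in YPD at 30 °C and an OD600 of 0.3 were treated for 1 hour. One set of samples compared 3MBPP1, an inhibitor made for kinases with an enlarged ATP pocket, with the solvent DMSO in hrr25as and in WT cells, and the other compared the compound labelled CMK with DMSO in hrr25is and in WT cells. The protocol text names CMK and DMSO, while the sample titles and characteristics also name 3MBPP1, which the groups follow. Each table compares a condition B with a condition A, and its header does not say which of them was DMSO, so every effect below is condition B over condition A. Nothing in the labels says that the 2 samples of a group came from separate cultures, so the spread between them may be technical.

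De novo purine synthesis builds the purine ring in steps on a ribose phosphate and ends in inosine monophosphate (IMP), from which AMP and GMP are made. In yeast the transcription factors Bas1 and Pho2 activate the ADE promoters together, and this activation is known to need the pathway intermediates SAICAR and AICAR, whose levels drop when the cells take up adenine. The paralogues Ade16 and Ade17 consume AICAR: each carries both AICAR transformylase and IMP cyclohydrolase activity, the steps that close the ring. One-carbon units for the pathway come from the folate cycle, and AICAR is also a by-product of histidine synthesis.

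ADE17 (YMR120C, chromosome XIII, 507502 to 509280, minus strand) and ADE16 (YLR028C, chromosome XII, 199540 to 201315, minus strand) are given in coordinates of build R64, the assembly also named sacCer3. Their coding sequences have 1779 and 1776 bases and were identical at 74.8% of 1776 aligned positions. The longest run of bases that they share was 19, against a read length of 100, and none of the 10 genes overlapped another annotated gene. Their promoters are shown because the paralogues behaved differently in the tables. The lines hold bases 300 to 101 before the start codon, 5′ to 3′ on the strand of the gene, from the RefSeq genome of that build, and capitals mark TGACTC, the core letters bound by Bas1. The stretches lie at chrXIII:509381-509580 and chrXII:201416-201615.
ADE17: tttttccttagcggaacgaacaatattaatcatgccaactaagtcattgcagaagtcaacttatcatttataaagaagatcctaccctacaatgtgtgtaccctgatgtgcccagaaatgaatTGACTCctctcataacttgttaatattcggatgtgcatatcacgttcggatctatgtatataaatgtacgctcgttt
ADE16: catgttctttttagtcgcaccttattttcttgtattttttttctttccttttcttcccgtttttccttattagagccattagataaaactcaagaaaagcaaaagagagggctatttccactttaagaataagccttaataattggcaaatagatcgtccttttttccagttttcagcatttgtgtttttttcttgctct

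TGACTC was searched on both strands in the 300 bases before each start codon. It was found before 8 of the 10 purine synthesis genes, against 7.77% of all 6001 such windows. ADE1, ADE2, ADE5,7 and ADE8 held it more than once, as did 0.650% of all windows. The single ADE17 match had its last base 172 bases before the start codon. The ADE16 and ADE4 windows held none. The longer TGACTCA, which contains TGACTC and is the site of Gcn4, the activator of amino acid synthesis genes, stood only before ADE12 among the 10 genes, against 2.62% of all windows. A match is a run of letters and says nothing of binding. Whether matches go with the log2 ratios given below was not tested. With 3MBPP1 in hrr25as, ADE4 without a match had a log2 ratio of -1.10, and ADE16 without one had -0.19. ADE8 and ADE2, with 2 matches each, had -0.91 and -0.74. The stretches of ADE6, ADE12 and ADE1 are shown because these genes had the lowest log2 ratios after ADE17 in the 3MBPP1 table of hrr25as. They lie at chrVII:616226-616251 (minus strand), chrXIV:234181-234206 (plus strand), chrI:169139-169164 and chrI:169148-169173 (both plus strand), and GAGTCA in capitals is the same core on the opposite strand.
ADE6: caaccgttccTGACTCtttcctgctg
ADE12: ccttttcattGAGTCAcagattaaca
ADE1, upstream match: gcttattcacGAGTCAgtctgactct
ADE1, downstream match: cgagtcagtcTGACTCttgcgagaga

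**Figure D1:**
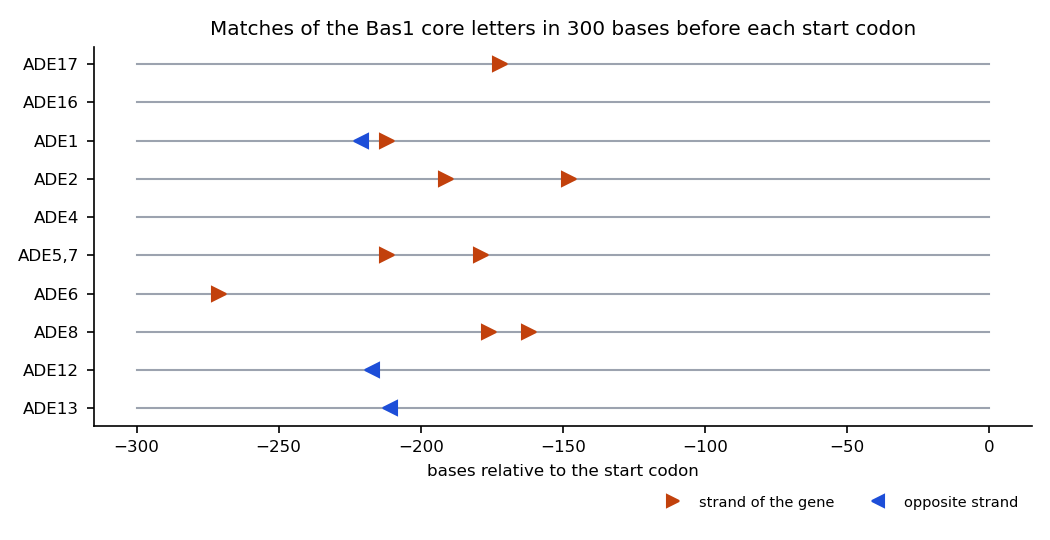
Position of TGACTC in the 300 bases before the start codon of each purine synthesis gene, in bases from that codon to the nearest base of the match, with right-pointing marks for the strand of the gene and left-pointing marks for the opposite strand. Of the 10 windows, 8 held at least 1 match, and those of ADE16 and ADE4 held none.

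Libraries held 4275991 to 34122412 counted reads. Whole reads per library could be recovered from the condition means, and a normalised count below is a library's reads divided by the authors' size factor. Within a condition the libraries are named smaller and larger by their size factor, since no replicate number is attached to them. The larger condition B library of the CMK table of hrr25is was equal at all 6760 features to the larger condition B library of the CMK table of WT, while the next most alike of 120 pairs of libraries was equal at 1.79% of features. That shared library had 1629 RPM (reads in each 1000000) of URA3 and 0.440 of LEU2, where the other hrr25is libraries of that table had 2.48 to 5.23 of URA3 and 75.4 to 85.8 of LEU2, so it carries the plasmid marker of WT. HRR25 had 690.5 to 864 RPM in WT cells of the CMK set, and it had 84.1 to 166 RPM in the other 3 tables outside the shared library. Values of the CMK table of hrr25is are given with and without the shared library. The libraries labelled WT in the 3MBPP1 set had 38.6 to 54.4 RPM of LEU2, a gene that their label gives as deleted, beside 91.0 to 120.1 RPM of URA3. The LEU2 level of WT in the CMK set was 0.132 to 1.67 RPM. In hrr25as LEU2 had 71.5 to 99.4 RPM and URA3 was not listed. The part that these marker differences play in the results was not tested. RNA of a whole culture cannot tell fewer expressing cells from less RNA per cell.

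In the 3MBPP1 table of hrr25as, ADE17 had 375 and 611 normalised counts in condition B, against 2854 and 2787 in condition A. Condition B thus held 17.5% of the condition A mean, a log2 ratio of -2.52 that the authors' deposited table gives an adjusted p of 1.91e-11, and both condition B libraries lay far below both condition A libraries. Only 4 of the 6258 features had a lower ratio. ADE16 had 2134 and 1438 normalised counts in condition B and 2411 and 1671 in condition A. Its groups overlapped, and the authors' deposited table gives its log2 ratio of -0.19 an adjusted p of 1. Scaled to total reads, ADE16 stood at 0.13, under a scaling that placed the median of all features at 0.34, so that it remained 0.21 below that median (log2).

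Genes of the enzymes that build the ring also had lower means in condition B of that table. ADE4 (YMR300C), the amidotransferase that commits ribose phosphate to the pathway, had 574 and 348 normalised counts in condition B, against 1197 and 784 in condition A. ADE5,7 (YGL234W), whose protein joins GAR synthetase and AIR synthetase, had 2403 and 1888 in condition B, against 5302 and 3611 in condition A. ADE8 (YDR408C), the GAR transformylase, had 162 and 176 in condition B, against 322 and 310 in condition A. The log2 ratios of these genes were -1.10, -1.05 and -0.91, and the libraries of the 2 conditions did not overlap for any of them. ADE6 (YGR061C), the FGAM synthetase, had 3895 and 3385 normalised counts in condition B, against 12451 and 7981 in condition A, a log2 ratio of -1.49. ADE2 (YOR128C), the AIR carboxylase, had 657 and 331 in condition B, against 1044 and 604 in condition A. ADE1 (YAR015W), the SAICAR synthetase, had 788 and 547 in condition B, against 1723 and 1221 in condition A. ADE2 overlapped between conditions, at a log2 ratio of -0.74, and ADE1 did not, at -1.14. In the authors' deposited table these 6 genes had an adjusted p between 0.0843 for ADE6 and 0.918 for ADE2.

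In the same table the authors' test called ADE12 and ADE13, which act in the branch toward AMP. ADE12 (YNL220W), adenylosuccinate synthetase, had 682 and 447 normalised counts in condition B, against 1856 and 1274 in condition A, and in the authors' deposited table it fell by 1.47 in log2 units (adjusted p = 0.0326). ADE13 (YLR359W), the adenylosuccinate lyase that acts in the ring-building steps and again in this branch, had 2883 and 2468 in condition B, against 5713 and 4607 in condition A, and fell by 0.95 (adjusted p = 0.0493 in the authors' deposited table). All 10 genes had a log2 ratio below 0, with a median of -1.08, beside a median of 0.02 over all features. The authors' test called 3 of the 10 lower, ADE17, ADE12 and ADE13, against 3.12% of all features, and both condition B libraries lay below both condition A libraries for 8 of the 10, against 23.9% of all features. Since the choice of genes used this contrast, nothing is read from these shares. By limma on the recovered reads, ADE17 and ADE6 passed in this table and ADE12 and ADE13 did not, where 3.4% of all features passed. ADE17 was called in each of 7 limma settings, which also covered total reads, a filter on low means and the omission of each library. Every other gene of the 10 was called in fewer of them, and ADE6 came next, ahead of ADE12 and ADE13. With all libraries kept, these settings called 70 to 213 features in all. Without ADE17 and ADE16 the median of the other 8 was -1.08 and their range -1.49 to -0.74, so ADE17 lay outside their range on one side and ADE16 outside it on the other.

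**Figure D2:**
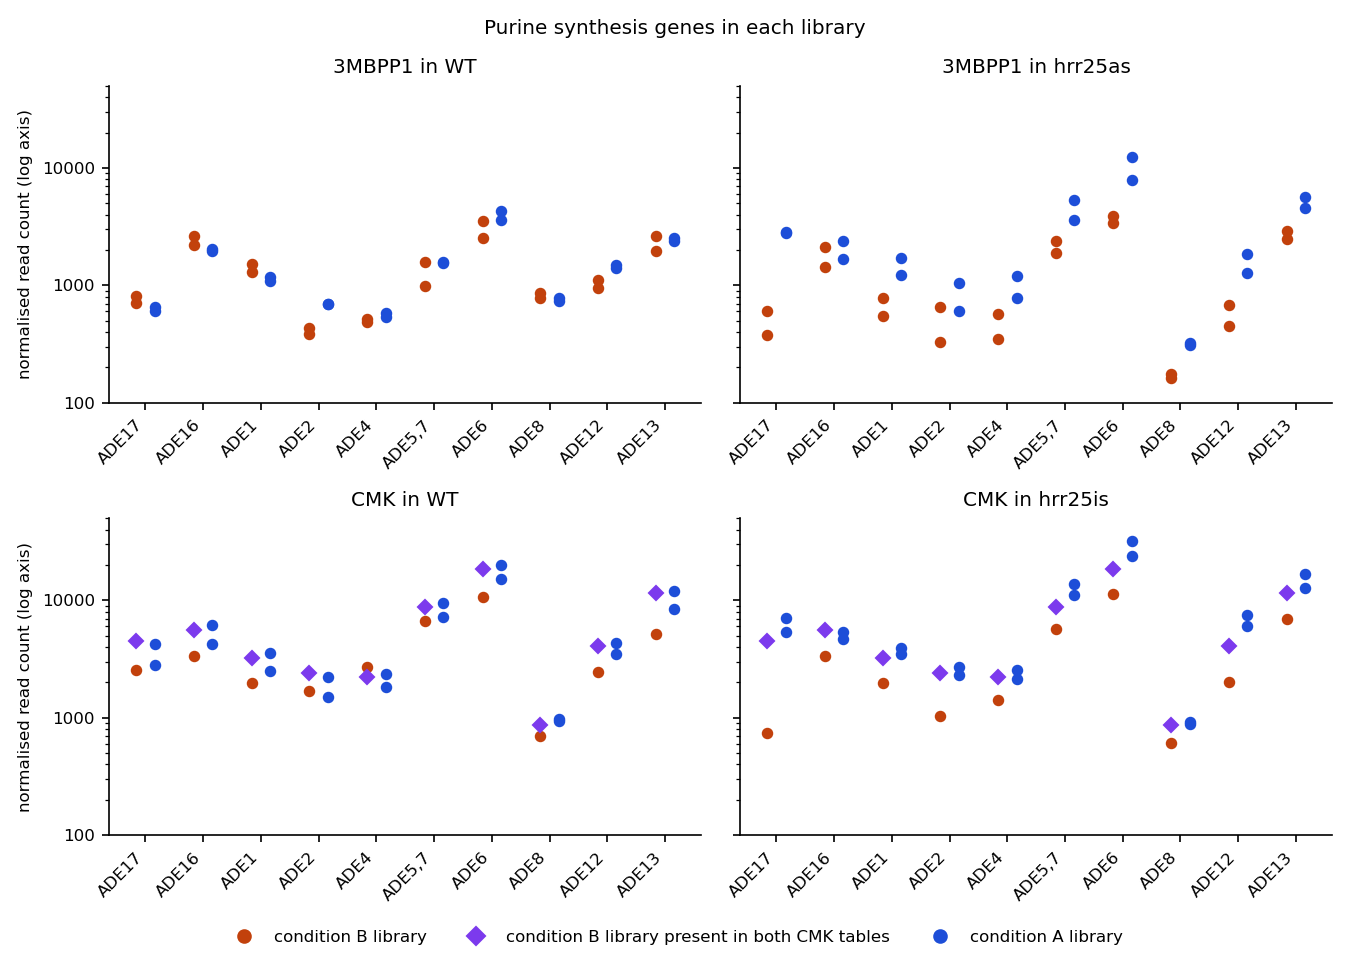
Normalised read counts (reads divided by the authors' size factor, log axis) of the 10 purine synthesis genes in each library of the 4 tables, with condition B in orange left of condition A in blue and the library present in both CMK tables as a purple diamond. In hrr25as with 3MBPP1, ADE17 stands at 375 and 611 in condition B, against 2854 and 2787 in condition A, while ADE16 overlaps.

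In the CMK table of hrr25is, ADE17 had 747 normalised counts in the condition B library that is found only there and 4497 in the shared library, against 5415 and 7067 in condition A. The log2 ratio of the deposited means was -1.25, and -3.06 without the shared library, which left condition B at 12.0% of the condition A mean. With the shared library as the lone condition B library the ratio was -0.47. With the shared library, 16 of 6760 features had a lower ratio. ADE16 had 3367 in the remaining condition B library and 5550 in the shared one, against 4657 and 5395 in condition A. Its log2 ratio was -0.17, and -0.58 without the shared library. With the shared library the ADE16 groups overlapped and those of ADE17 did not.

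ADE12 had 2029 normalised counts in the remaining condition B library and 4060 in the shared one, against 5988 and 7509 in condition A, a log2 ratio of -1.15 and of -1.73 without the shared library. ADE6 had 11364 and 18539 in the same order, against 23907 and 31812 in condition A, at -0.90 and -1.29. ADE2 had 1026 and 2417, against 2313 and 2724 in condition A, at -0.55 and -1.30. For ADE2 the shared library lay among the condition A values, and the remaining library lay below both. ADE5,7 had 5662 and 8715, against 11077 and 13784 in condition A, at -0.79 and -1.13. ADE13 had 6906 and 11542, against 12837 and 16662 in condition A, at -0.68 and -1.09. ADE1 had log2 ratios of -0.51 and -0.92, ADE4 of -0.38 and -0.74, and ADE8 of -0.29 and -0.58, each without the shared library second.

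All 10 genes were below 0 in the CMK table of hrr25is, with a median log2 ratio of -0.61, and -1.11 without the shared library, beside medians of 0.01 and -0.01 over all features. The authors' test called 0 of the 10, each at an adjusted p of 1, against 0.0444% of all features called in either direction. At an unadjusted p under 0.05 the authors' table held 3 of the 10, as it did 154 of the 6760 features, and limma on the recovered reads called 0 of the 10 and 0 of all features. Both condition B libraries lay below both condition A libraries for 7 of the 10 genes, against 17.7% of all features. The remaining condition B library alone lay below both condition A libraries for 10 of 10, against 39.6% of all features. Without the shared library limma called 8 of the 10 lower, all but ADE16 and ADE8, against 7.53% of all features, in a fit that assumes the lone library to vary like the others. ADE17 was the lowest of the 10 with and without the shared library, and ADE16 and ADE8 were the least lowered without it, at -0.58 each.

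In the libraries labelled WT of the 3MBPP1 set, whose LEU2 reads go against that label, the log2 ratios of the 10 genes lay on both sides of 0, from -0.76 to 0.31. ADE17 had 706 and 817 normalised counts in condition B, against 600 and 660 in condition A, a log2 ratio of 0.27 (adjusted p = 0.589 in the authors' deposited table). ADE16 had 2194 and 2615 in condition B, against 1962 and 2046 in condition A, at 0.26 (adjusted p = 0.513 there). Both paralogues, ADE1 and ADE8 had condition B above condition A in every library. ADE1 had 1305 and 1529 in condition B, against 1181 and 1099 in condition A, and ADE8 had 863 and 782 in condition B, against 776 and 738 in condition A.

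ADE2 was the single gene of the 10 called in that WT table, with 387 and 432 normalised counts in condition B, against 691 and 696 in condition A, and in the authors' deposited table it fell by 0.76 in log2 units (adjusted p = 0.0060). The authors' test called 4.59% of all features lower there. Limma on the recovered reads called ADE2 and ADE12, where it called 8.41% of all features in either direction, and scaled to total reads it called 0 of the 10 and 5.34% of all features. ADE12 had 957 and 1101 in condition B, against 1503 and 1414 in condition A, a log2 ratio of -0.50 that missed the threshold in the authors' deposited table (adjusted p = 0.107). ADE6 stood at -0.37, ADE5,7 at -0.30, ADE4 at -0.16 and ADE13 at -0.09. The median of the 10 was -0.13, beside -0.00 over all features. Condition B lay below condition A in all libraries for 4 genes, against 26.7% of all features, and above it for 4, against 27% of all features.

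In the CMK table of WT, ADE17 had 2527 normalised counts in the smaller condition B library and 4497 in the shared one, against 4231 and 2812 in condition A, a log2 ratio of -0.00. ADE16 had 3339 and 5550 in condition B, against 6113 and 4253 in condition A, at -0.22. Both genes overlapped between conditions. The log2 ratios of the 10 ran from -0.30 for ADE8 to 0.22 for ADE4, with a median of -0.22 beside 0.01 over all features. The authors' deposited table gives each of the 10 an adjusted p of 1, 0 of them and 68 of the 6760 features passed at an unadjusted p under 0.05 there, and limma on the recovered reads called 0, where the authors' test called 0.133% of all features. ADE8 alone had both condition B libraries below both condition A libraries, with 692 and 869 in condition B, against 973 and 946 in condition A, and 12.8% of all features did so.

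**Figure D3:**
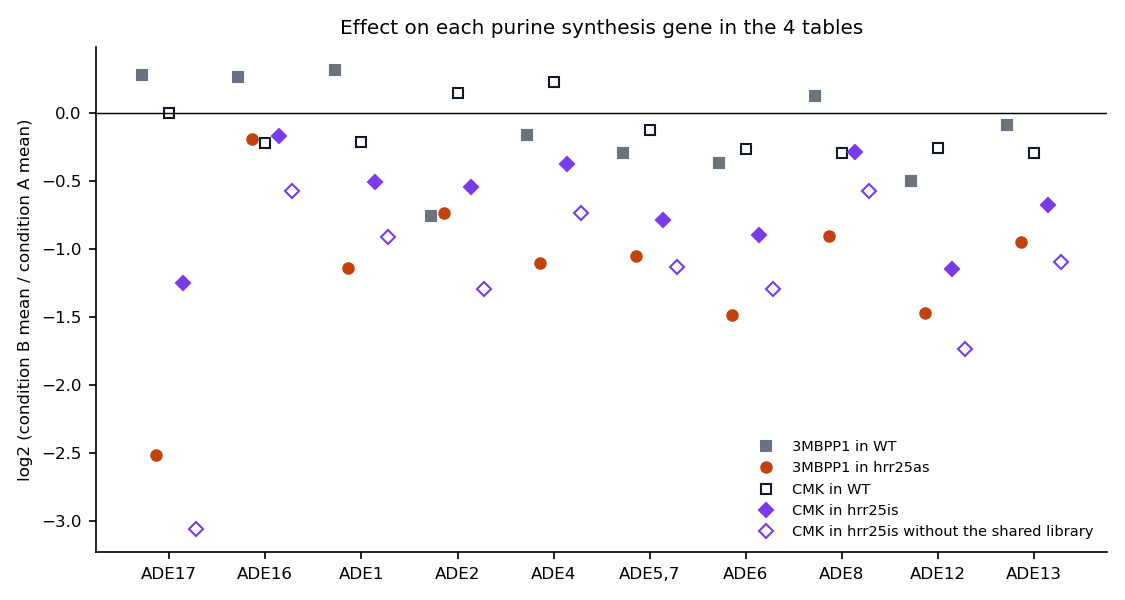
Log2 ratio of the condition B mean to the condition A mean for each purine synthesis gene in the 4 tables, with open diamonds for CMK in hrr25is without the library present in both CMK tables. ADE17 lies at -2.52 in hrr25as and at -3.06 in the hrr25is table without the shared library, and at 0.27 and -0.00 in the WT tables.

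A ratio of the paralogues within a library does not depend on how libraries are scaled. Per kilobase of coding sequence, ADE17 had 0.176 and 0.424 times the reads of ADE16 in condition B of the 3MBPP1 table of hrr25as, against 1.18 and 1.67 times in condition A. ADE17 thus had more reads per kilobase than ADE16 in both condition A libraries and fewer in both condition B libraries, and the mean log2 ratio of the paralogues differed by -2.36 between the conditions. In the CMK table of hrr25is the ratio was 0.222 in the remaining condition B library and 0.809 in the shared one, against 1.16 and 1.31 in condition A. The difference of the mean log2 ratios was -1.54, and -2.48 without the shared library. In the 3MBPP1 table of WT the ratio was 0.321 and 0.312 in condition B and 0.305 and 0.322 in condition A, overlapping values whose log2 means differed by 0.01. WT cells of the CMK set had ratios of 0.756 and 0.809 in condition B, against 0.691 and 0.660 in condition A, a log2 difference of 0.21. A ratio within a library shows that the paralogues changed unequally and does not show that either was unchanged.

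**Figure D4:**
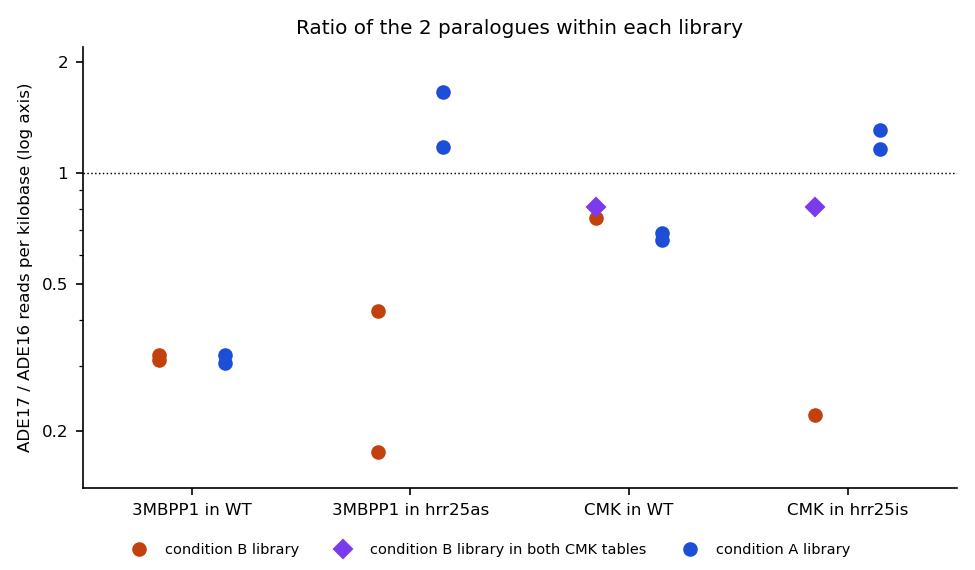
Reads per kilobase of ADE17 divided by those of ADE16 within each library (log axis), condition B left of condition A in each table, with the library present in both CMK tables as a purple diamond. Values above 1 occur only in condition A of hrr25as (1.18 and 1.67) and of hrr25is (1.16 and 1.31).

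Levels of the 10 genes are compared as reads per kilobase in each 1000000 protein-coding reads, within a table, since the sets were normalised separately. ADE13 had the highest mean level in both conditions of every table, with values that overlapped those of ADE1 and ADE16 in condition B of the 3MBPP1 table of WT. It had, for example, 397 and 445 in condition B and 607 and 699 in condition A of the 3MBPP1 table of hrr25as. In condition A of that table ADE6 (374 to 541), ADE5,7 (286 to 390), ADE1 (253 to 332) and ADE17 (284 to 299) followed, each overlapping its neighbour in that order, then ADE12 (187 to 253) and ADE16 (180 to 241), which overlapped each other. ADE4, ADE8 and ADE2 were lowest, and ADE2 overlapped both ADE4 and ADE8. In condition B of that table ADE17 (47.2 to 80.1) was the ninth of 10 by its mean and overlapped ADE12, ADE4, ADE2 and ADE8, while ADE16 (189 to 269) was the second and overlapped ADE6, ADE5,7 and ADE1. ADE17 was the fifth of 10 in condition A and ADE16 the seventh.

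In condition A of the CMK table of hrr25is ADE17 had a level of 175 to 203 and ADE16 of 151 to 155, and they did not overlap. The remaining condition B library of that table had 29.6 for ADE17, the lowest of its 10 levels, and 134 for ADE16. In WT cells ADE17 was below ADE16 in every library. It had 68.7 and 73.9 in condition B and 48.9 and 56.0 in condition A of the 3MBPP1 table, where ADE16 had 214 and 237 in condition B and 160 and 174 in condition A. In the CMK table of WT ADE17 had 117 and 156 in condition B and 142 and 106 in condition A, where ADE16 had 154 and 192 in condition B and 205 and 161 in condition A. The share of reads in protein-coding genes was 46.0% to 59.6% in WT with 3MBPP1 and 78.7% to 93.3% elsewhere.

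The 10 genes also differed in the same direction between libraries of 1 condition. In condition A of the 3MBPP1 table of hrr25as, all 10 had more normalised counts in the smaller library, by a median of 0.54 on the log2 scale, where the median over all features was 0.02. ADE17 was nearly level there, at 0.03, and ADE16 differed by 0.53. In its condition B, 8 of 10 were higher in the smaller library, at a median of 0.44, and ADE17 went the other way at -0.70. In condition A of the CMK table of WT all 10 were higher in the smaller library (median 0.45), and in condition A of the CMK table of hrr25is 9 of 10 were higher in the larger one (median -0.29, smaller over larger). In condition B of the CMK tables the shared library was the higher one for all 10 genes in hrr25is (median -0.72) and for 9 of 10 in WT (median -0.71). The part that these library differences play in the effects was not tested.

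ADE17 was set beside all features with a mean of at least 50 normalised counts in every table, 5142 in all, over 16 library columns from 15 distinct libraries, with each table centred on its own mean. The 5 features with the highest Pearson r were SHM2 (0.97), the cytosolic serine hydroxymethyltransferase of the folate cycle, PHO81 (0.96), an inhibitor of the phosphate-responsive kinase Pho80-Pho85, PHM6 (0.96), GAS3 (0.95) and MRH1 (0.95). Of the purine synthesis genes, ADE8 was nearest, at 0.90 and rank 21, and ADE6 (0.86), ADE12 (0.86), ADE1 (0.85), ADE13 (0.84) and ADE5,7 (0.83) followed within rank 102. ADE4 stood at 0.74, ADE2 at 0.66 and ADE16 at 0.54, which was rank 940. The columns share tables and conditions, and the values are a description. Pearson r does not weigh the size of a change. In the 3MBPP1 table of hrr25as the log2 ratio of ADE17 was -2.52. There SHM2 had -1.81, PHO81 -0.38, PHM6 -1.10, GAS3 -0.87 and MRH1 -1.23. SHM2 had 1060 and 1421 normalised counts in condition B, against 3783 and 4898 in condition A of the 3MBPP1 table of hrr25as.

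Around the pathway, 38 genes were followed in lists of precursor supply, steps from IMP onward, salvage and uptake, regulators, and one-carbon and histidine synthesis. The genes of the last list were picked as controlled by Bas1, which also activates the ADE promoters, and GLN1 was placed among them. A likeness of that list to the 10 genes therefore does not describe one-carbon and histidine synthesis at large. In the 3MBPP1 table of hrr25as the authors' test called 7 of them, where 4.31% of all features were called. The one-carbon and histidine list had a median log2 ratio of -0.96 there, near the -1.08 of the 10 purine synthesis genes. All 10 genes of that list had a ratio below 0. The authors' test called 4 of them lower, against 3.12% of all features. In the authors' deposited table SHM2 fell by 1.81, GCV2, a subunit of the glycine cleavage complex, fell by 0.94, HIS4, an enzyme of histidine synthesis, fell by 1.60, and GLN1, glutamine synthetase, fell by 1.99. Of the other lists, IMD3, an IMP dehydrogenase, fell by 1.12, AAH1, adenine deaminase, fell by 1.18, and GUD1, guanine deaminase, rose by 1.18 in the authors' deposited table. The sequences of the IMD genes were not compared here, so how well reads tell these paralogues apart was not tested.

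The other lists had medians nearer 0 in hrr25as: -0.65 for the 6 genes of precursor and shared steps, -0.62 for the 8 from IMP onward and -0.33 for the 11 of salvage and uptake. The regulators BAS1, PHO2 and GCN4 had log2 ratios of -0.36, 0.33 and -0.34 in the authors' deposited table, and none was called. HIS1, the enzyme that opens histidine synthesis, had -1.40 (adjusted p = 0.0981 in the authors' deposited table). GUA1, the GMP synthetase, had -1.18 (adjusted p = 0.198 there). In the CMK table of hrr25is 0 of the 38 were called by the authors' test and 0 by limma on the recovered reads. The one-carbon and histidine list had a median of -0.61, and -1.01 without the shared library. HIS4 stood at -1.39 and -2.15, SHM2 at -0.83 and -2.14, and HIS1 at -0.84 and -1.57, without the shared library second. With the shared library, 3 of the 10 genes of that list went the other way. These were GCV2 at 1.00, GCV3 at 0.35 and GCV1 at 0.33, which stood at -1.22, -0.38 and -0.41 without it. In the shared library GCV2 had 4788 normalised counts, beside 573 in the remaining condition B library, against 1570 and 1106 in condition A.

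The libraries labelled WT in the 3MBPP1 set had 11 of the 38 called, where 7.37% of all features were called. PRS1, a PRPP synthetase, was called lower (by 0.66 on the log2 scale in the authors' deposited table). So were the IMP dehydrogenase genes IMD2 (by 0.66), IMD3 (by 0.82) and IMD4 (by 1.15), and GUA1 (by 1.02). APT1, adenine phosphoribosyltransferase (by 0.77), AAH1 (by 0.91), FCY2, a purine and cytosine permease (by 0.87), and GLN1 (by 0.69) were called lower there as well. GCV1 and GCV3, subunits of the glycine cleavage complex, rose by 1.14 and 0.66 in the authors' deposited table. The list from IMP onward had a median of -0.55, beside -0.13 for the 10 purine synthesis genes. SHM2, the gene most like ADE17, had -0.11 there. In the CMK table of WT 0 of the 38 were called by the authors' test, 0 passed at an unadjusted p under 0.05 in the authors' table, and limma on the recovered reads called 0.

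**Figure D5:**
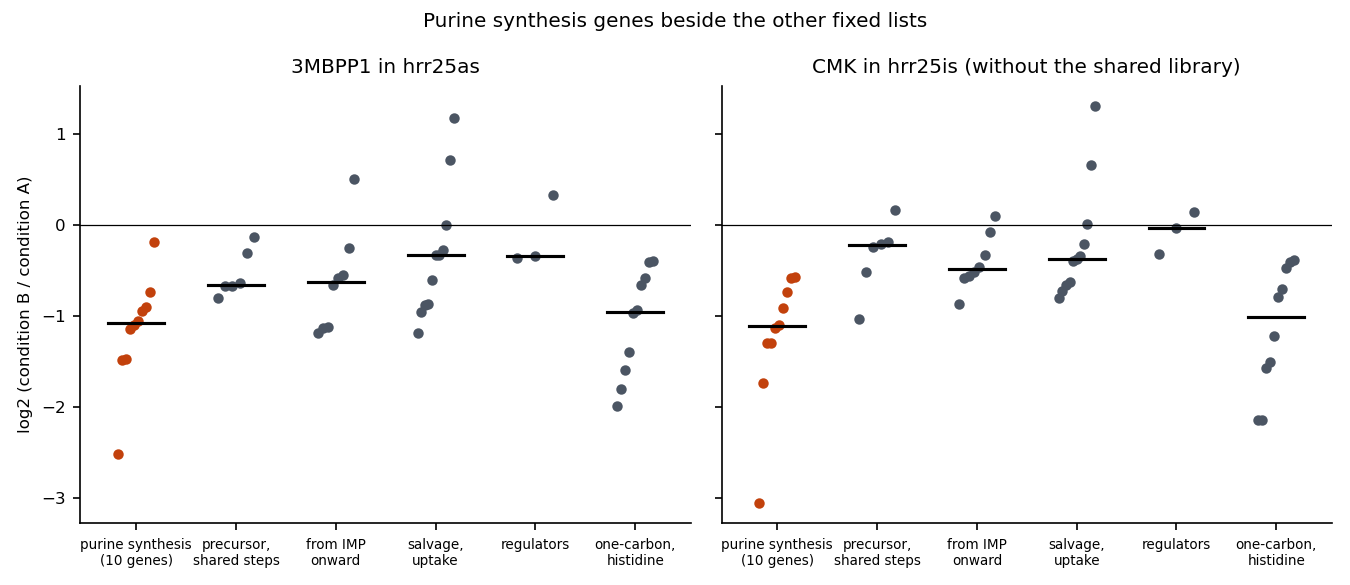
Log2 ratio of condition B to condition A for each purine synthesis gene (orange) and each gene of the other lists (grey), with a bar at each list's median, for 3MBPP1 in hrr25as (left) and CMK in hrr25is without the library present in both CMK tables (right). The purine synthesis medians are -1.08 and -1.11, and those of the Bas1-controlled genes listed under one-carbon and histidine synthesis are -0.96 and -1.01.

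The choice of the genes used no difference between strains within condition A as such. It did use the condition A means, as denominators of the ratios above. Condition A of hrr25is was compared with condition A of WT in the CMK set by limma on log2 values, with Benjamini-Hochberg adjustment over 6760 features. The comparison shares its condition A libraries with the effects above. A high condition A in hrr25is thus lowers a gene's ratio there and raises its difference here. The direction of a difference is therefore not independent of the choice of genes. Strain, plasmid marker and any batch of the tables cannot be told apart in the comparison. ADE17 had 5002 and 6533 normalised counts in hrr25is, against 3915 and 2601 in WT. Every hrr25is library was thus above every WT library, and the log2 difference was 0.84 with a standard error of 0.28 and an adjusted p of 0.370 in limma. ADE16 had 4302 and 4988 in hrr25is, against 5657 and 3934 in WT, overlapping values with a log2 difference of -0.03 (limma, adjusted p = 0.981).

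ADE12 had 5531 and 6942 normalised counts in hrr25is, against 4014 and 3233 in WT, a log2 difference of 0.78 with a limma adjusted p of 0.316. ADE6 differed by 0.66, ADE5,7 by 0.57, ADE13 by 0.53 and ADE2 by 0.46, and ADE8 by -0.10. Of the 10, 8 had a positive difference, with a median of 0.49 beside 0.01 over all features, and 6 had both hrr25is libraries above both WT libraries, against 24% of all features. None of the 10 was called, at an adjusted p of at least 0.316, where 0.0296% of all features were, and 2 of the 10 passed at an unadjusted p under 0.05, as did 838 of the 6760 features. The features called were the plasmid markers LEU2, at 8.67, and URA3, at -8.18, named after their values were seen. Without the smaller condition A library of WT, limma called ADE17, at 1.14 with an adjusted p of 0.0288, and no other of the 10, in a fit that called 9.38% of all features.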

How the data were processed

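The submitters' processing notes name HTSeq 0.6.0, STAR 2.3.0, CASAVA 1.8.2 and the build sacCer3. Their roles and the strand setting of counting are not given in the sources used here. Per the labels' protocols, rRNA-depleted total RNA gave single-end reads of 100 bases. The deposited tables carry the column names of a DESeq comparison, per the file headers. The authors deposited the mean normalised signal of condition A, of condition B and of both, the fold change as a ratio of B over A, its log2, a p-value and an adjusted p-value. The ratio and the Benjamini-Hochberg adjustment were checked in every row. The plan assumed that whole reads might be recoverable. Each condition mean was solved for a pair of whole counts and size factors, which left 1 ambiguous mean, not of a purine gene, and the method was tested on simulated data.

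The members and lists were chosen with earlier results of these data known. Named outside the 10 genes are list genes at an authors' adjusted p under 0.05, up to 3 others a list by size of the log2 ratio, and the 5 features most like ADE17. Alternatives were limma 3.58.1 in R 4.3.3 on log2(reads / size factor + 1) with a mean-variance trend, scaling to total reads, a pseudocount of 10, a mean of at least 10, and leaving out each library. The strain comparison used limma without a trend on 7 distinct libraries. Locus tags matched 5867 of 6760 IDs in the CMK tables, 5672 of 6258 in hrr25as and 5879 of 6834 in WT with 3MBPP1. A planned identity of the proteins was replaced by that of the coding sequences.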

Additional observations from a re-analysis of the deposited data

Results flagged for a closer look

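For 3 of the purine synthesis genes, both libraries of condition B moved one way in hrr25as cells and both moved the other way in the libraries labelled WT of the 3MBPP1 set. The share of all features split in this way was not counted. Both condition B libraries lay below both condition A libraries for 23.9% of all features in hrr25as. They lay above both for 27% of all features in WT. ADE17 had a log2 ratio of condition B to condition A of -2.52 in hrr25as, against 0.27 in WT. ADE1 had -1.14 in hrr25as, against 0.31 in WT. ADE8 had -0.91 in hrr25as, against 0.12 in WT. The difference between the strains was not tested, the genes were chosen with these ratios known, and of the 6 ratios that of ADE17 in hrr25as alone passed the authors' adjusted p. The strains also differ in their plasmid marker, the WT libraries of that set held LEU2 reads that their label would not give, and the header does not say whether condition B was 3MBPP1 in either table. No gene of the 10 was split in this way in the CMK set.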

How the results depend on the processing

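No paired analysis was possible because the recovered libraries carry no replicate number. Scaling to total reads placed the median of all features at 0.34 in hrr25as and 0.21 in WT (3MBPP1) and at 0.33 in hrr25is and 0.14 in WT (CMK), and gave ADE17 and ADE16 0.49 each in WT with 3MBPP1. Leaving out a library moved ADE17 between -2.91 and -2.21 in hrr25as, between -3.06 and -0.47 in hrr25is, between 0.17 and 0.38 in WT with 3MBPP1 and between -0.48 and 0.35 in WT with CMK, and ADE16 between -0.50 and 0.10, -0.58 and 0.14, 0.13 and 0.38, and -0.63 and 0.10, in the same order. Without the shared library ADE17 stood at -3.06 and ADE16 at -0.58 in hrr25is.

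The authors' test called 3 of the 10 genes in hrr25as, limma 2, and limma on total reads 1, with 1 to 8 when a library was left out (1 without the smaller condition A library, 8 without the smaller and 5 without the larger condition B library, 6 without the larger condition A library). Of all 6258 features these tests called 270, 213 and 70, and 232, 456, 505 and 324 with those libraries left out in the same order. In WT with 3MBPP1 the counts were 1 by the authors' test, 2 by limma and 0 on total reads, with 0 to 4 when a library was left out (0 without either condition A library, 4 without the larger condition B library). Of all 6834 features they called 504, 575 and 365, and 132 and 206 without the smaller and the larger condition A library and 686 without the larger condition B library. In hrr25is with CMK 0 to 8 were called when a library was left out, the 8 without the shared library, where 7.53% of all features were called lower, and in WT with CMK 0 to 1, the 1 without the shared library, where 785 of 6760 features were called. Of the 38 list genes, limma called 4, 3 at a mean of at least 10 (202 of all features) and 1 on total reads in hrr25as, against 7 by the authors' test, with 3 to 15 when a library was left out (232 and 456 of all features). In WT with 3MBPP1 limma on total reads called 4, against 11 by the authors' test, with 2 to 17 when a library was left out (206 and 686 of all features), and in the CMK set the counts were 0 to 13 in hrr25is (1 and 864 of all features) and 0 to 7 in WT (9 to 57 of all features where 0 was called, and 785 where 7 were). A fit with 1 library in a condition assumes that it varies like the others. The choice of the 10 genes used these contrasts, so nothing is read from their counts. Over all features limma called 0 in both CMK tables, against 3 in hrr25is and 9 in WT by the authors' test.

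Between strains in condition A, 0 to 1 of the 10 genes were called when a library was left out, the 1 where 634 features were called. Over all features 2 were called, and 1 on total reads, 25 with a pseudocount of 10, 64 with voom weights, 76 with a mean-variance trend (an alternative chosen after seeing the data), and 2 to 634 when a library was left out.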
